A study of Mus musculus with 4 samples.

Results

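Strong regions of open chromatin found only in Hoxa5-deficient cervical motor neurons numbered 6146 of 199576 union regions, or 3.08%. At any strength, 20640 regions (10.3%) had a peak in both Hoxa5-deficient libraries and in neither control. They were chosen by their peaks: intervals of 4 peak lists were merged wherever they overlapped by at least 1 bp, and a region was kept if its best −log10 q was 5 or more in each of the 2 Hoxa5-deficient libraries and if neither of the 2 control libraries had a peak of any strength in it. The q value is the peak caller's p-value for tags piled up over local background, adjusted for the number of positions tested. Since presence and strength chose these regions, their counts and strengths are a description with no test, and the sections on position, genes and neighbouring shared regions hold what the choice did not use. Regions are not replicates of a genotype, so the 95% Wilson intervals given with shares cover the counting of regions only.

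Open chromatin was assayed by ATAC-seq, a method that inserts sequencing adapters into accessible DNA with the enzyme Tn5. DNA came from cervical cells sorted for the ChAT::GFP reporter transgene, which labels motor neurons and other cholinergic cells, at embryonic day 12.5. The Hoxa5-deficient embryos and their control littermates gave 2 libraries each, and all 4 carried the reporter. Labels used here give neither the Hoxa5 allele, nor the number of embryos in a library, nor the share of sorted cells that were motor neurons, and with 2 libraries against 2 an exact permutation test cannot go below p = 0.3333.

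Hox transcription factors pattern the nervous system from head to tail, and proteins of the Hox5 group act in cervical motor neurons, among them the phrenic neurons that innervate the diaphragm. Open chromatin marks promoters, which lie at the starts of genes and are mostly open in many cell types, and distal elements such as enhancers, which lie in introns or between genes and differ more between cell types. An ATAC-seq peak gives the place of open DNA and not its target gene, so each region was named here after the protein-coding gene that contains its summit, or otherwise after the nearest gene body.

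Few of these regions touched a promoter. Promoter windows from 250 bases before to 50 bases after a RefSeq gene start (GRCm38.p6, the coordinates of mm10) overlapped 37 of the 6146 regions (0.602%), against 1.69% of strong control-only regions and 24.7% of regions strong in all 4 libraries. The 43 windows belonged to 38 genes, of which 12 were protein-coding. Windows of 4 of the 8 coding genes whose window held the summit, chosen with their values known to show genes of different roles, are given 5′ to 3′ on the gene's strand, with the 21 bases centred on the stronger Hoxa5-deficient summit in capitals.
Ahcyl2, chr6:29859346-29859645, plus strand: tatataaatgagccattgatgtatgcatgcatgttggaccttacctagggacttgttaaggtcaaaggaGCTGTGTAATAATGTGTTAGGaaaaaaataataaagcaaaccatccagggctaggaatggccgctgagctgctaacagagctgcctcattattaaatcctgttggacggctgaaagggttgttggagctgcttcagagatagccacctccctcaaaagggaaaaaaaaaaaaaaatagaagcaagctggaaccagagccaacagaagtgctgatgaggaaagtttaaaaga
Lhx9, chr1:138842395-138842694, minus strand: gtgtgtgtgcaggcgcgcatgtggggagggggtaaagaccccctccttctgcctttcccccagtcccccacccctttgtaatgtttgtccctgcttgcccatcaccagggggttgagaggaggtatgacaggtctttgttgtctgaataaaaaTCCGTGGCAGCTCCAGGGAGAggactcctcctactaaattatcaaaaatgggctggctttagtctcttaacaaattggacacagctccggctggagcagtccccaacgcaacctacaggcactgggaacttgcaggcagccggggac
Cyp19a1, chr9:54228865-54229164, minus strand: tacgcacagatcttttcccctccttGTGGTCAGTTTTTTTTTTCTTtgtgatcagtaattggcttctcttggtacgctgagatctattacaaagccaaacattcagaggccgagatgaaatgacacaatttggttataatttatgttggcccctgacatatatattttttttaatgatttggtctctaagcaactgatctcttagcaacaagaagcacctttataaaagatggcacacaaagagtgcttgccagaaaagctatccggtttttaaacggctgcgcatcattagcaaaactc
Tmem207, chr16:26526722-26527021, minus strand: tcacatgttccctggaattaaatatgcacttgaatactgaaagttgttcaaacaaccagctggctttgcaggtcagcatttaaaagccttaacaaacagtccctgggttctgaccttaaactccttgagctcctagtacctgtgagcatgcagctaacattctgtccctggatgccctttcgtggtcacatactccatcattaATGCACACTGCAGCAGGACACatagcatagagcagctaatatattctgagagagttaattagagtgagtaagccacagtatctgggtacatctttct

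The Ahcyl2 window belongs to a gene of the S-adenosylhomocysteine hydrolase-like family, and its region (chr6:29859053-29859790) had −log10 q of 16.8 and 59.8 in the Hoxa5-deficient libraries. Lhx9 encodes a LIM-homeodomain factor of dorsal spinal interneurons. Its region (chr1:138842360-138842704) had −log10 q of 17.7 and 20.9, with the summit 87 bases before the gene start. Cyp19a1 encodes aromatase, which makes oestrogens, and the region at its start had 14.3 and 16.2. At Tmem207, a gene of a membrane protein, the values were 7.39 and 14.5. The second Hoxa5-deficient library had the stronger peak at these 4 and the weaker one at 3 others with the summit in a coding gene's window, among them Pex16, a peroxisome gene, with 15.4 and 11.8.

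Of the 37 regions that overlapped a window, 18 had the summit in one. Of the 38 genes, taking the first overlapped window of each, 8 (21.1%, 11.1 to 36.3) held the homeodomain core TAATTA on either strand. Of the 12 coding genes only Tmem207 held it, at base 259 of its window. That core stood in 5.31% of 27025 genes' first windows, in 6.48% of the 9533 noncoding ones, in 2 of 27 windows (7.41%) at strong control-only regions and in 2.44% at regions strong in all 4 libraries. Base composition moved with this share: the median GC content was 45.0% in the windows of Hoxa5-deficient-only regions, 51.0% in those of control-only regions, 62.0% in those of regions strong in all 4 libraries and 52.7% in all, and its part in the share was not tested. The Hox-Pbx letters TGATTNA were in 4 of the 38 (10.5%, all genes 10.6%), the NFI half-site TTGGCA in 11 (28.9%, all genes 14.4%), the Sp1 letters GGGCGG in 4 (10.5%, all genes 35.9%), the E-box CAGCTG in 6 (15.8%, all genes 16.1%) and the Ebf letters CCCNNGG in 19 (50%, all genes 50.4%). The Onecut letters ATCGAT were in none (all genes 0.881%), nor were the E-box CATATG (all genes 3.91%) and the AP-1 letters TGANTCA (all genes 7.93%). These matches, each searched on both strands, describe 300-base windows and not binding.

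The libraries differed in yield. Hoxa5-deficient libraries held 127458 and 138248 intervals, and control libraries 115089 and 113505. The lowest background, which scales with depth, was 5.14 and 6.06 tags in Hoxa5-deficient libraries and 5.43 and 4.39 in controls, so the first Hoxa5-deficient library was shallower than the first control and had more intervals. When each list was reduced to its strongest 113505 intervals, the same rule found 6190 regions. That step drops only the weakest intervals, while the 6146 regions stood at percentile 42.9 and 37.3 or higher in the Hoxa5-deficient lists. It could therefore not remove their peaks, and it was no test of depth or of weak control signal. The mirrored rule found 1476 strong control-only regions (0.74% of all regions), and the rule applied to pairs of 1 Hoxa5-deficient and 1 control library found 356 mixed-genotype regions (0.178%). Of 7 motor neuron markers, 6 and 6 had a peak within 1 kb of a gene end in Hoxa5-deficient libraries and all 7 in both controls, the exception being Isl2. Markers of progenitors (6 of 6), interneurons (6 of 6), glia (3 of 4) and sensory or crest cells (4 of 4) had such peaks in every library, as did 2 of 5 vascular and blood markers, with none at Cdh5, Pecam1 and Gata1. What share of cells these peaks came from was not measured.

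Most of the regions were of modest strength. Median −log10 q was 9.63 (from 5.005 to 117) in the first Hoxa5-deficient library and 15.4 (from 5.02 to 275) in the second, and the median fold over background was 4.40 and 5.10. The summits were piled up from a median of 28 tags (from 21 to 155) and 38 tags (from 22 to 282). Regions strong in all 4 libraries had median −log10 q of 41.1 and 61.7 in Hoxa5-deficient libraries and 38.9 and 32.9 in controls. At the lowest background a summit needed 12 and 10 tags to enter the control lists. How many tags the controls had at these regions below that limit is not known, so a missing peak is not closed chromatin.

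Summits of the Hoxa5-deficient libraries lay a median of 25 bp apart, and 4579 regions (74.5%) had them within 50 bp. The rule asks for peaks of both in the same merged region, of median width 542 bp, so near summits are partly fixed by the choice. In strong control-only regions the control summits lay a median of 22 bp apart. For strength, Spearman's rank correlation of the −log10 q values was 0.593 over 6146 regions, which share libraries and were all cut at 5. The second library, the deeper one, had the higher value in 4684 (76.2%). A single summit was called in 65.7% and 65.5% of the regions.

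**Figure D1:**
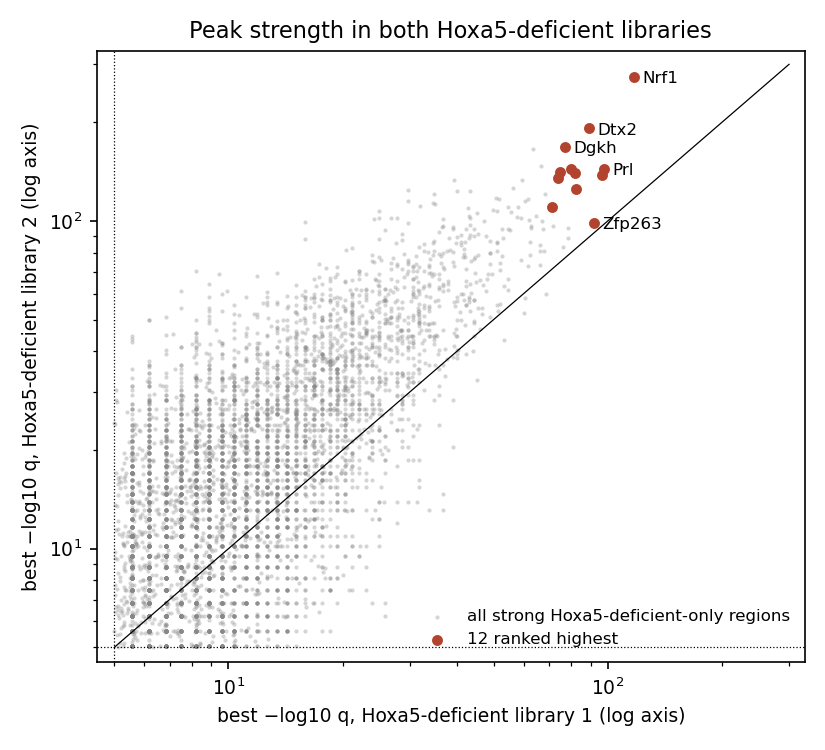
Best −log10 q of each of the 6146 regions in the first (x axis) and second (y axis) Hoxa5-deficient library, on log axes; dotted lines mark the threshold of 5, the solid line marks equality, and the 12 ranked highest are red. Points lie mostly above the line of equality, and the region in Nrf1 stands highest with 117 and 275.

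The absence of control peaks was mostly a matter of weaker regions. Among 66291 regions strong in both Hoxa5-deficient libraries, 54436 had a peak in both controls, 5709 in 1 control and 6146 (9.27%) in none. Where the lower of both −log10 q values was from 5 to 10, 22.9% had no control peak, and the share was 12.3% from 10 to 20 and 4.48% from 20 to 50. At 50 or more it was 0.320%, or 65 of 20306. At the threshold, the weakest region kept lay near Pcdh18, a protocadherin gene, with 5.005 and 5.60, and the nearest left out lay near Nuak1, a kinase gene, with 4.989 and 17.9.

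The 12 highest-ranked regions by the lower of their percentiles within each list were assigned to 12 genes. The first lay inside the body of Nrf1, which encodes nuclear respiratory factor 1, a regulator of mitochondrial genes (chr6:30112504-30113237). It had −log10 q of 117 and 275 with 136 and 276 tags in the Hoxa5-deficient libraries and, as the rule requires, no peak in either control. Its summit was 40530 bp from the nearer end of the gene. Next came a region 99.2 kb from Prl, the prolactin gene (97.5 and 144), and others in Camk4, a calcium-dependent kinase gene (96.2 and 138), and 1.14 kb from Dtx2, a Deltex ubiquitin ligase gene (89.1 and 191).

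Neuronal genes were among the others. Lrp1b, a large endocytic receptor gene, held a region with 82.4 and 125, and Ank2, which encodes the membrane-skeleton adaptor ankyrin-B, held a region with 71.2 and 110. Grin3a, an NMDA receptor subunit gene, was the nearest body to a region 501 kb away with 74.9 and 141, and Cbln2, a synaptic organiser gene, to a region 594 kb away with 73.6 and 135. The remaining regions were in Gnat3 (gustducin, 79.9 and 144) and Dgkh (a diacylglycerol kinase, 77.1 and 168), 147 kb from Zwint (a kinetochore protein, 81.6 and 140) and 30.6 kb from Zfp263 (a zinc finger protein, 91.9 and 98.5). Of these 12, 6 lay inside a gene body and 6 outside.

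Strong Hoxa5-deficient-only regions lay far from gene ends. Only 75 (1.22%, 0.9747 to 1.53) had the summit within 1 kb of either end of a protein-coding gene, against 5.76% of strong control-only regions, 10.1% of the strong mixed-genotype regions, 26.9% of regions strong in all 4 libraries and 8.78% of all union regions. The median distance to a gene end was 78.7 kb, against 29.0 kb for control-only regions and 34.4 kb for all regions. Regions over 100 kb from any protein-coding gene made up 28.9% (27.8 to 30.03) of them, against 13.2% of control-only regions, 9.78% of regions strong in all 4 and 16.9% of all regions. Over 500 kb from any gene the share was 7.09%, against 1.63% of control-only and 3.07% of all regions.

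**Figure D2:**
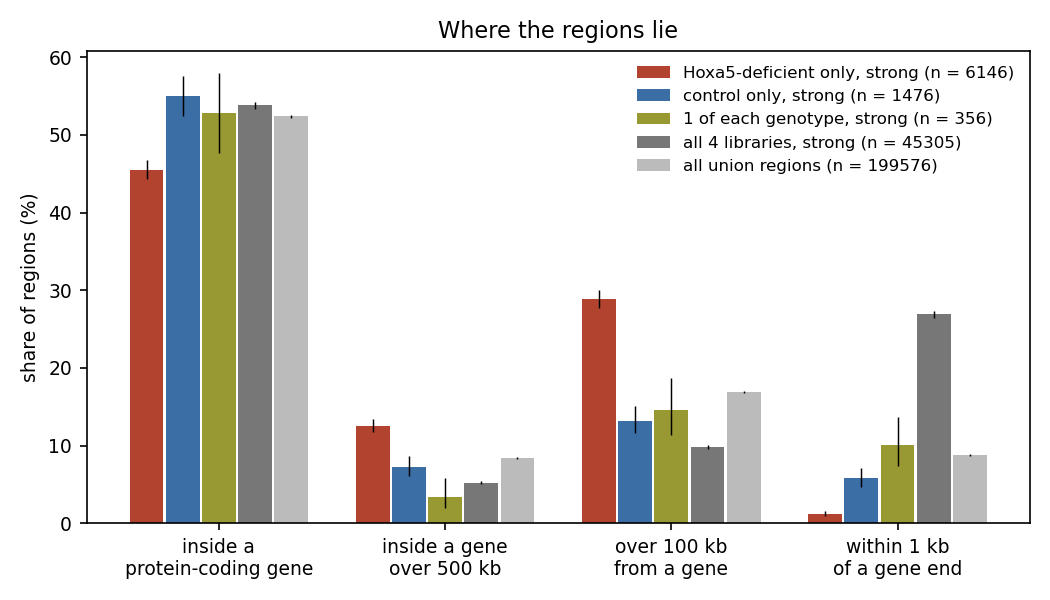
Share of regions (y axis, percent) inside a protein-coding gene, inside a gene over 500 kb, over 100 kb from a gene and within 1 kb of a gene end, for 5 classes of region; bars start at 0 and error bars are 95% Wilson intervals over regions. Strong Hoxa5-deficient-only regions (red) had the highest share over 100 kb from a gene, 28.9%, and the lowest within 1 kb of a gene end, 1.22%.

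Inside genes, they lay in long ones. Protein-coding bodies held 45.5% (44.3 to 46.8) of the summits, against 55.0% of control-only and 52.4% of all regions. The holding gene had a median length of 268 kb, against 129 kb for control-only regions and 146 kb for all regions, and 12.5% of the Hoxa5-deficient-only regions lay in genes over 500 kb, against 7.25% and 8.41%. Counted the other way, they were 1.41% of the regions in genes up to 100 kb, 3.11% in genes of 100 to 500 kb, 4.15% in genes of 500 kb to 1 Mb and 5.36% in genes over 1 Mb. Strong control-only regions went the opposite way, at 0.823%, 0.786%, 0.703% and 0.518% of the same regions. Outside genes the Hoxa5-deficient-only share was 2.56% up to 100 kb from a body, 4.85% from 100 to 500 kb and 7.11% beyond 500 kb, and the control-only share was 0.765%, 0.619% and 0.391%.

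Only a few gene ends carried a strong Hoxa5-deficient-only region. Ranked by the lower percentile, the first were at Lgsn, a gene of the lens protein lengsin (0.647 kb outside the body, −log10 q 40.8 and 52.6), Drc3, a ciliary dynein regulator gene (36.0 and 62.8), and Ankrd16 (33.9 and 76.3). Then came Erv3, 0.042 kb outside the body (24.9 and 38.8), Clint1, a clathrin adaptor gene (23.0 and 46.0), Slc45a2, a pigment-cell transporter gene (22.3 and 42.3), Cobll1 (20.3 and 25.7) and Wdfy3, an autophagy adaptor gene (20.96 and 25.1). Further down the ranking stood Onecut1, a gene of the motor neuron identity list, 0.973 kb outside the body (5.55 and 10.9). Hairpins of 4 miRNAs, Mir721, Mir344h-2, Mir6404 and Mir6413, lay within 1 kb of a region, whose lower −log10 q was 24.3, 5.62, 7.51 and 8.20 in that order.

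The regions were spread over 3099 genes, of which 1814 had a single region. Another 247 genes had 5 or more and 21 had 10 or more, and those 21 held 254 regions (4.13% of all). Strong control-only regions were assigned to 1248 genes, with at most 5 at a gene, and 564 genes had both kinds. They are 0.74% of all regions, so the lack of any at a single gene is not a result about that gene. The 10 genes with most strong Hoxa5-deficient-only regions were chosen by the number of these, which fixes a high share. Their bodies are long, from 390.0 to 2241 kb.

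Rbfox1, a neuronal splicing regulator gene of 1528 kb, had 17 of 262 regions in the class, 14 of them inside the body, and 1 strong control-only region. Its −log10 q values ran from 5.55 to 34.6 (median 10.4) and from 5.21 to 113 (median 17.0) in the Hoxa5-deficient libraries. The strongest lay 55.6 kb outside the gene at chr16:5828713-5829575, with 34.6 and 113. The teneurin genes Tenm2 and Tenm3, which encode adhesion proteins that bind latrophilins across the synapse, had 16 of 229 and 15 of 278 regions, with 0 and 2 control-only regions. Cntnap2, a contactin-associated adhesion gene, had 15 of 150 (10%) and no control-only region. Its strongest (chr6:44808749-44809743) had 29.7 and 40.3 and lay 251 kb outside the body, while 12 lay inside.

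Magi2, a synaptic scaffold gene, had 14 of 130 regions, 13 of them inside, and Fhit, a nucleotide hydrolase gene, 14 of 152. Arhgap24, a gene of a GTPase-activating protein, had the highest share of these 10 genes, 13 of 76 (17.1%), with −log10 q from 5.55 to 27.4 and from 5.04 to 63.0. Celf2, another splicing regulator gene, had 12 of 178, and Robo1, a receptor gene for Slit guidance cues, had 12 of 238. Magi2, Arhgap24 and Celf2 had no strong control-only region, Robo1 had 1 and Fhit had 2.

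**Figure D3:**
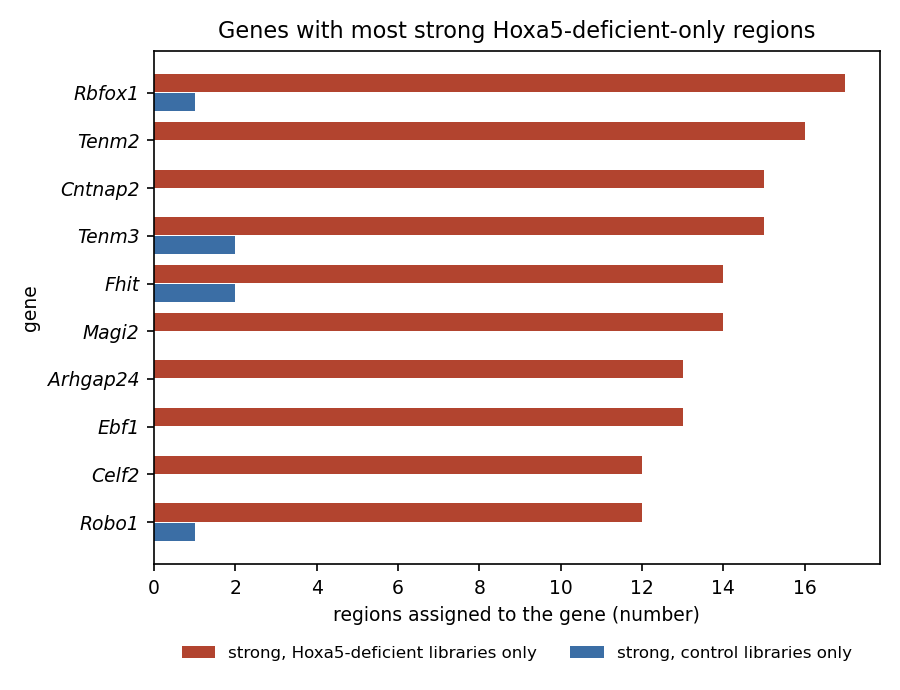
Number of regions assigned to each of the 10 genes with most strong Hoxa5-deficient-only regions (red, above) beside strong control-only regions at the same genes (blue, below). Red bars run from 12 to 17 and blue bars from 0 to 2; the genes were chosen by their red bars.

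Ebf1, an Ebf-family transcription factor gene expressed in differentiating motor neurons, had 13 of 145 regions, 8 of them in the body, and no control-only region. Of these, 5 stood within 21.9 kb near its start (chr11:44622466-44644356). Their −log10 q values were 7.16, 7.67, 9.20, 8.91 and 7.51 in the first Hoxa5-deficient library and 11.2, 9.97, 9.88, 13.9 and 8.09 in the second. All 5 were below the medians of the class in both libraries. The strongest region assigned to Ebf1 lay 229.8 kb outside the gene (chr11:45237661-45238419) and had 36.9 and 101, with 57 and 123 tags.

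Isl1, the LIM-homeodomain gene that specifies motor neurons, has a short body of 11.4 kb, and all 5 regions of its 45 in the class lay outside it, from 18.8 to 475 kb away. The first Hoxa5-deficient library had −log10 q of 20.3, 34.8, 6.19, 35.8 and 6.19 there, in coordinate order, and the second had 13.9, 44.4, 5.62, 31.3 and 37.2. Strength varied among these regions, and neither control had a peak in any, as the rule requires of every region of the class. Foxp1, which marks limb-innervating motor neurons, had 5 of 120 regions and 0 control-only regions, and Foxp2 had 6 of 56 and 1. Slit2, the gene of a guidance cue that motor neurons make, had 7 of 86 and no control-only region. Ebf1 and the genes above were those with most regions of the class in the motor neuron identity list, where 17 of 30 genes had any. Of the 7 motor neuron markers, only Isl1 with 5 and Slc5a7 with 1 had any, 6 in all. Marker sets of other cell types had similar numbers. Sensory or crest markers, Isl1 among them, had 7, vascular and blood markers 7, glial markers 6, interneuron markers 5 and progenitor markers 3. The share over the whole motor neuron identity list was 4.52%, against 3.08% of all regions.

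Clusters along the chromosomes were small. A region of the class lay within 50 kb of another in 1853 cases (30.1%, 29.0 to 31.3), against 16.1% of strong control-only and 2.25% of mixed-genotype regions, and the median gap was 108 kb against 379 and 1793 kb. More regions alone give shorter gaps. Counted in steps of union regions, the next region was of the same class in 5.42% of cases, 1.76 times the 3.08% of all regions, and for control-only regions in 1.49%, 2.02 times their 0.74%. Chaining regions under 50 kb apart gave 5119 groups, of which 4293 were single regions, 667 held 2, 127 held 3, 22 held 4 and 10 held 5.

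None of the 10 groups of 5 held a strong control-only region. The groups spanned 8 to 17 union regions each, and only 0.74% of all union regions are strong control-only ones, so this lack is not a result about the groups. Those inside a single gene were in Ebf1, Unc5d (a netrin receptor gene, 49.1 kb), Nell1 (a secreted-protein gene, 64.3 kb), BC052040 (67.5 kb), Cacna2d1 (a calcium channel subunit gene, 111 kb) and Rbfox1 (135 kb). Others lay outside Iqcj (51.5 kb), outside Tox3 (84.8 kb) and between Arhgap24 and Wdfy3 (99.4 kb), and the last ran over Lta4h, Hal, Amdhd1, Ccdc38 and Snrpf (129.9 kb). In the BC052040 group the first Hoxa5-deficient library had −log10 q of 8.21, 10.4, 17.6, 23.3 and 40.0 and the second had 9.49, 13.9, 25.7, 22.7 and 57.0, in coordinate order, with the highest value last in both. The Cacna2d1 group had 11.1, 9.63, 22.1, 16.8 and 11.1 in the first and 22.1, 12.4, 18.7, 24.8 and 27.6 in the second. Regions with a peak in all 4 libraries stood within 9 of the 10 groups, from 2 to 6 each, and the Iqcj group had none among its 11 regions.

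Every chromosome but Y carried regions of the class, at 25.1 per 1000 union regions on chromosome 11 to 35.5 on chromosome 16 and 40.4 on X. Around Hoxa5 itself (chromosome 6) the share was close to that of the genome: 2.76% of 1160 regions within 5 Mb, 3.56% of 1602 within 10 Mb and 3.41% of 2872 within 20 Mb, against 3.08%. Within 1 Mb, a distance chosen after the data were seen, it was 15 of 312 (4.81%). Those 15 lay at Gm38821, Snx10 (3), Skap2 (2), Evx1 (2), Hibadh (3) and Jazf1 (4), none of them at a Hox gene. The 2 near Evx1, a homeodomain gene beside the Hoxa cluster, lay 34100 and 76764 bp from it, with −log10 q of 17.6 and 8.20 in the first Hoxa5-deficient library and 39.3 and 17.0 in the second.

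The Hoxa5 gene had 2 union regions, each with a peak in every library, so the lists do not show what the Hoxa5 allele was. The one at its upper-coordinate end (chr6:52203661-52204891) had −log10 q of 94.0 and 175 in Hoxa5-deficient libraries and 139 and 70.8 in controls, and the 2 genotypes overlapped. Across all 39 Hox genes, 1 of 206 regions (0.485%, 0.0857 to 2.70) was a strong Hoxa5-deficient-only region. The share was 3.08% over all regions and 2.46% at all genes of the same lengths. Strong control-only regions numbered 4 (1.94%, all regions 0.74%). The Hoxa5-deficient-only region lay 14.8 kb from Hoxc4 (chr15:103051114-103052037), a neighbour of Hoxc5, with 24.7 and 30.7 in the Hoxa5-deficient libraries.

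Genes of neuronal surface proteins held higher shares of these regions than progenitor and glial genes. Ion channel genes had 95 of 1574 regions (6.04%), cadherin and protocadherin genes 119 of 1979 (6.01%), phrenic motor column genes 79 of 1400 (5.64%), synaptic organiser and receptor genes 184 of 3491 (5.27%) and other cell adhesion genes 116 of 2305 (5.03%). Motor neuron identity genes had 58 of 1282 (4.52%), axon guidance genes 114 of 2780 (4.10%) and Hox cofactor genes 21 of 552 (3.804%). The background is 3.08% over all regions, but it moves with gene length: 2.46% at genes up to 100 kb, 3.48% from 100 to 500 kb, 4.53% from 500 kb to 1 Mb and 5.70% over 1 Mb. Giving each region of a list the share of all genes in its length band, the same lengths had 3.98% for ion channel genes, 3.76% for cadherins, 3.88% for phrenic genes, 4.57% for synaptic genes, 4.43% for other adhesion genes, 3.47% for motor neuron identity genes, 3.97% for guidance genes and 3.44% for Hox cofactors. No test was made of the difference from these values. The bands take account of gene length and not of distance from the gene, with which the share also rose. Inside a gene body lay 37 of the 119 regions at cadherin genes, 29 of 79 at phrenic genes and 76 of 95 at ion channel genes. In the whole class 45.5% lay inside one. Several genes stand in more than 1 list.

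Lists of other cell types lay on both sides of the background. Neural progenitor genes had 13 of 799 (1.63%), with 12 control-only regions, and glial genes 12 of 677 (1.77%), with 16 control-only regions. Spinal interneuron genes had 23 of 692 (3.32%), and vascular, blood and mesenchyme genes 9 of 263 (3.42%), of which 5 lay near Cdh5, a vascular cadherin gene that is also in the cadherin list. All genes in the same length bands had 2.68% for the progenitor list, 3.398% for the glial, 2.46% for the interneuron and 2.81% for the vascular list. Housekeeping genes had 0 of 51, which allows a share of up to 7.005% by the Wilson interval. Of the 24 progenitor genes 9 had a region of the class: Irx3 had 3, Irx5 and Sox2 had 2 each, and 6 genes had 1 each. Control-only regions at these numbered 1 at Irx3, 0 at Irx5 and 4 at Sox2.

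**Figure D4:**
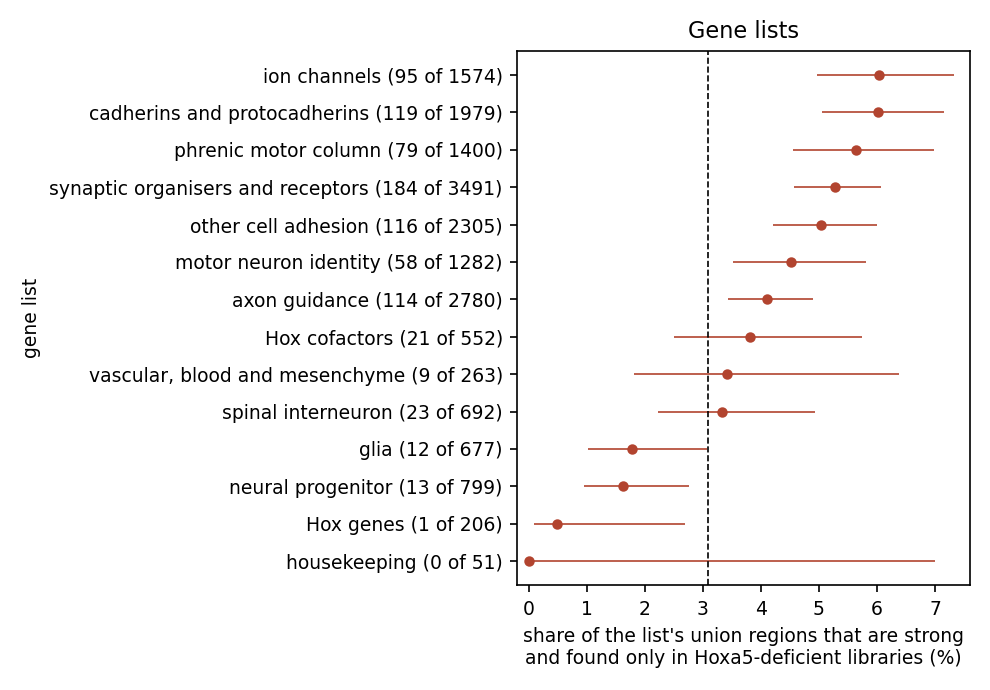
Share of each gene list's union regions that were strong and found only in Hoxa5-deficient libraries (x axis, percent), with 95% Wilson intervals over regions; counts stand beside the list names and the dashed line marks 3.08%, the share over all regions. Ion channel and cadherin genes stand highest at 6.04% and 6.01%, and Hox and housekeeping genes lowest.

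Within the cadherin and phrenic lists, which overlap, single genes had from 0 to 9 regions. Cdh11, a type II cadherin gene, had 9 of 113, 2 of them inside and the farthest 1594 kb away, and no control-only region. In order of coordinate, the first Hoxa5-deficient library had −log10 q of 19.4, 6.84, 11.1, 26.8, 13.5, 11.9, 8.91, 8.25 and 14.3 at these, and the second had 21.3, 24.8, 17.0, 44.4, 12.4, 11.6, 6.84, 12.9 and 29.4. The strongest (chr8:102154728-102155163) stood 477 kb outside the gene. Cdh8, another type II cadherin gene, had 8 of 106, Pcdh15 had 9 of 86, Pcdh9 had 8 of 145, Cdh13 had 7 of 189, all 7 inside its body, and Cdh6 had 7 of 87. Alcam, an immunoglobulin-family adhesion gene of the phrenic list, had 7 of 62.

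Ion channel genes were led by 4 with 8 regions each: Cacna2d1 (of 68), the potassium channel genes Kcnd2 (of 68) and Kcnma1 (of 120), and Kcnip4 (of 80), whose protein binds Kv4 channels. Among guidance genes, Robo2 had 10 of 164, Unc5d 10 of 110 and the netrin receptor gene Dcc 7 of 128. Other adhesion genes included Ncam2 with 11 of 74, Lsamp with 9 of 207 and Opcml with 8 of 159, and the receptor phosphatase gene Ptprd of the synaptic list had 11 of 188. Control-only regions at these genes numbered 0 to 3. Of the Hox cofactors, which bind DNA together with Hox proteins, Meis2 had 7 of 104 regions, Pknox2 4 of 74, and Meis1 3 of 129 and Pbx3 3 of 86.

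Regions with a peak in all 4 libraries were the measure of the neighbourhood that the choice did not use. The nearest of these 65789 shared regions lay a median of 14.95 kb away (95% interval 14.2 to 15.5), against 5.77 kb from strong control-only regions, 6.37 kb from mixed-genotype regions and 8.83 kb from another shared region. Within 50 kb there was a shared region in 82.3% of cases, against 94.0% for control-only regions. The nearest interval of either control library was a median of 6.36 kb away, and 428 regions (6.96%) had a control interval within 500 bp. Control-only regions were nearer to intervals of the Hoxa5-deficient libraries, at 2.51 kb and 16.9%. Those lists are longer, with 127458 and 138248 intervals against 115089 and 113505 in controls. Control-only regions also lay nearer gene ends, at a median of 29.0 kb against 78.7 kb. The distances were adjusted for neither.

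Shared regions nearest to the class ranked lower than average in every library and less so in the Hoxa5-deficient ones. Their median percentile of −log10 q among shared regions was 44.3 and 44.3 in the Hoxa5-deficient libraries and 36.6 and 37.8 in the controls. The groups did not overlap, the difference was 7.09 percentile points, and the exact permutation test gave p = 0.3333, the smallest that 4 libraries allow. Neighbours of control-only, mixed-genotype and shared regions also had groups that did not overlap, with the same p from this test. Their differences were −1.34, 0.785 and −0.607 points, so the lack of overlap was not particular to the class. Taken region by region, the median difference for neighbours of the class was smaller, 1.37 points. It was −0.765 for neighbours of shared regions and −0.553 for neighbours of control-only regions. Neighbours of control-only regions had medians of 53.8 and 53.9 in the Hoxa5-deficient libraries and 55.2 and 55.2 in controls.

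**Figure D5:**
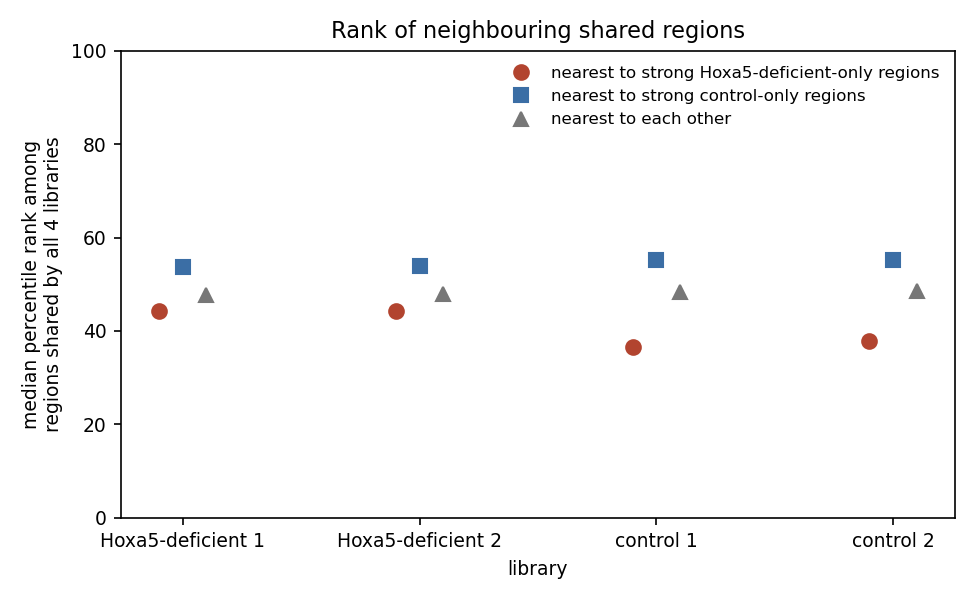
Median percentile rank of −log10 q (y axis), within each library (x axis), of the shared region nearest to each strong Hoxa5-deficient-only region (circles), each strong control-only region (squares) and each shared region (triangles). Circles stand at 44.3 and 44.3 in the Hoxa5-deficient libraries and at 36.6 and 37.8 in the controls.

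Nearness to the class ordered this difference steadily only among shared regions inside genes over 500 kb, where it fell with distance. Over all shared regions, the median difference per region, Hoxa5-deficient minus control, was −1.24 points within 5 kb of a region of the class, 0.507 from 5 to 20 kb, −0.113 from 20 to 100 kb and −0.750 beyond 100 kb. It differed between places: among shared regions over 100 kb from a gene it was 1.69, 3.88, 4.44 and 2.79 at the same distances, among those inside genes over 500 kb 4.84, 3.92, 2.82 and 2.53, and among those within 1 kb of a gene end −1.49, −0.244, −0.274 and −0.160. Shared regions over 100 kb from a gene or in long genes thus ranked higher in the Hoxa5-deficient libraries also where no strong Hoxa5-deficient-only region was within 100 kb. The difference was also positive near strong control-only regions. Inside genes over 500 kb it was 3.85, 3.05, 1.33 and 3.09 points at the same distances from a control-only region, the first over only 44 shared regions. Over 100 kb from a gene it was positive at each of these distances too. A positive difference in these places was therefore not particular to nearness to the class.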

How the data were processed

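The 4 ATAC-seq peak lists were used, 1 per library, with 2 libraries of each genotype. Per the submitters' processing notes, the tools were FastQC 0.11.9, Bowtie2 2.3.4.3, SAMtools 1.9 and MACS2 2.2.4 on the build mm10. Their settings, and any shift of reads for Tn5, are not given in the sources used here. Each list, called by the authors on 1 library, has 10 columns and no header. The deposited columns are a score, a fold ratio to background at the summit, p-values and q-values as −log10, and, as positions, the interval and the summit offset. Depth in reads is not in these lists. Tag counts and backgrounds were recovered from each deposited fold and −log10 p, which fix both, and came out whole (within 0.001 on the −log10 p scale) for all summits with −log10 p under 290.

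Regions were placed at the summit of the library with the highest −log10 q, on 21 chromosomes, against 21887 protein-coding gene bodies of a RefSeq table (GRCm38.p6). A gene end is either end of a body. Python 3.11.15, numpy 2.4.6, pandas 2.3.3, scipy 1.17.1 and matplotlib 3.10.9 were used. The rule and the counts were tested on simulated lists. Motifs were planned for 300 bases around each summit, for which no genome was used here, so RefSeq promoter windows took their place. The members, the gene lists and the comparisons were chosen with earlier results of these data known. Named genes are those of the 12 highest-ranked members, the 10 genes with most members, the largest clusters (5 were asked for, and 10 tied at 5 members), Hox genes with a member, up to 8 genes with a member at an end, and up to 4 genes of each list. Printed promoters, Onecut1, Pex16, Pbx3, Evx1, the genes within 1 Mb of Hoxa5 and genes at the threshold were chosen with their values known. Of the genes under the rule, 1 is not reported here. Shares carry 95% Wilson intervals. For each list, the share in all genes of the same lengths averages, over its regions, the share in 4 bands of gene length. Alternatives changed the q threshold (3 and 10), the number of intervals, what counts as a control peak, the merging of intervals, the gene annotation and the libraries.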

Additional observations from a re-analysis of the deposited data

How the results depend on the processing

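Counts of regions followed the threshold. Asking for −log10 q of 3 or more gave 10323 regions, with 44.7% within 50 kb of another, a median of 14.2 kb to the nearest shared region and 4.91% of regions within 5 Mb of Hoxa5 (5.17% of all regions). Asking for 10 or more gave 2564 regions, with 42.6% inside genes, 31.6% over 100 kb from a gene, 15.8% within 50 kb of another, 16.7 kb to the nearest shared region and 1.29% near Hoxa5 (1.28% of all). Ignoring control peaks with −log10 q under 1.3 gave 32.4% within 50 kb of another. Counting a control interval within 500 bp as a peak gave 28.4%, and 15.9 kb to the nearest shared region. With all annotated genes in place of protein-coding ones 53.2% lay inside a gene. Equal interval numbers gave 6190 regions and windows around summits 5983. Leaving out 1 library at a time gave 8174 to 14615 regions, 46.2% to 47.0% inside genes, 26.3% to 28.2% over 100 kb away, 1.36% to 1.80% within 1 kb of a gene end, 37.4% to 54.7% within 50 kb of another, 11.6 to 13.5 kb to the nearest shared region and 3.49% to 7.15% near Hoxa5, where the same rules took 4.61% to 7.87% of all regions. Each such rule asks for fewer libraries, so the counts grow by construction, most without Hoxa5-deficient library 1 (14615) and without control library 2 (9440). A change of direction was defined only for the rank difference of neighbouring shared regions, which stayed positive throughout. The share near Hoxa5 was below that of all regions by the main rule (2.76% against 3.08%). It was above with control peaks under 1.3 ignored (3.71% against 3.45%), without control library 2 (5.68% against 5.11%) and, barely, at 10 or more (1.29% against 1.28%). It was below in the other alternatives. At the 10 genes with most regions, 10 or more left 2 to 12 regions, 3 or more gave 14 to 31, and leaving out a library gave 13 to 32, with Robo1 at 28 without Hoxa5-deficient library 1 and 22 without control library 2, against 12. Replicate numbers are only names here: deviations of same-numbered libraries over shared regions correlated at −0.00343. With the replicate block, a fit chosen after seeing the data, the rank difference of neighbouring shared regions was 7.09 points (7.68 and 6.51 within numbers), and an exact permutation within pairs gave p = 0.5, the smallest it can give. For the counts, shares and distances, no paired analysis was possible because all 4 libraries chose the members. The lists hold no value where no peak was called, no reads and no embryo numbers, so weak control signal and the spread between animals could not be measured.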
